A study of Mus musculus and Homo sapiens with 32 samples.

Results

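The regions described here carried an m6A-CT peak in both kinds of mouse stem cell of the study, E14 embryonic stem cells and expanded potential stem cells (EPSC), and none in mouse embryonic fibroblasts (MEF). They were chosen by merging the 3 peak lists made from 100K nuclei into 44148 regions of overlapping peaks on the mm9 genome, at least 1 bp being enough, and by keeping those with an E14 peak, an EPSC peak and no MEF peak. This left 1920 regions. Before the fibroblast list was read, 5227 stem cell regions had peaks of both kinds of stem cell, so 36.7% of them lacked a fibroblast peak. The 1920 regions took up 24.4% of the E14 list and 16.2% of the EPSC list. A further 3236 regions had peaks in all 3 lists and serve below as the comparison.

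m6A-CT maps N6-methyladenosine (m6A) by directing a transposase with an anti-m6A antibody to RNA paired with cDNA in permeable nuclei. The series has 32 libraries in 16 groups of 2, and each m6A-CT group has an input group without antibody. E14 was profiled at 100K, 25K and 5K nuclei, EPSC (whose labels name E14 as the cell line) at 100K nuclei and CF1 MEF at 100K nuclei, all with a Synaptic Systems antibody and with no genetic change named. C57BL/6 embryonic stem cells, either wild-type or Mettl3-/- (KO) by their labels, were profiled with a MilliporeSigma antibody, so that set differs from E14 in both strain and antibody. Nuclei of E14 and EPSC were prepared for 1 min in 0.02% and 0.015% Triton X-100 and those of MEF for 5 min in 0.2% NP-40, which cannot be told apart from the cell type here. Each peak list and each column of the genotype table stands for a whole group, so there is no value per library and no replicate error, and every interval below covers counting error alone.

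m6A is placed on nascent RNA by a writer complex whose catalytic subunit is METTL3. It tends to sit in long exons and near stop codons, and it shortens the life of many transcripts. In embryonic stem cells it is known for acting on the messages of pluripotency factors, which stay high when the writer is lost. A region counts as lacking a fibroblast peak both where its RNA is unmethylated in MEF and where it is little expressed there, and the lists do not tell these apart. Likewise, fewer nuclei that carry an RNA and less of it per nucleus cannot be told apart in bulk libraries.

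The labels were checked against cell type markers. Of 11 stem cell markers with a position in the files, 8 had an E14 peak, 7 an EPSC peak and none a MEF peak, and 7 of them carried a region of the set: Sox2, Esrrb, Zfp42, Tdgf1, Lin28a, Sall4 and Cdh1. Pou5f1, Dppa5a and Epcam had no peak in any of the 3 lists. Of 7 fibroblast markers, 5 had a MEF peak, among them Col5a1, Col6a3 and Fbn1, and 1, Fn1, also had peaks in both stem cell lists, while none carried a region of the set. Of 4 endothelial and blood markers only Pecam1 had a stem cell peak, and the 4 trophectoderm and primitive endoderm markers had none. The MEF list is the longest of the 3, with 38205 peaks against 8052 in E14 and 12183 in EPSC, and the depth behind these lists is unknown. Pooled totals are known for the C57BL/6 set, with 39310394 m6A-CT and 45090626 input reads for wild-type, and 37532658 and 51031598 for the KO.

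The fold enrichments of the peaks are the authors' and are used here to describe and rank peaks within a list. They were what the peak caller reported for the peaks that chose the regions, so they carry no test. The median fold was 7.39 in E14, with quartiles of 5.02 and 10.9, and 6.28 in EPSC, with quartiles of 4.11 and 9.17. Both lists thus placed these regions above their own middle, at a median percentile of 65.7 in E14 and 64.0 in EPSC. Regions that also had a MEF peak lay at median percentiles of 41.1 and 51.0, but they fall at other positions, and the E14 order turned outside listed exons (given below). The E14 and EPSC folds of a region were within 2-fold of each other in 1553 regions (80.9%). A single E14 peak and a single EPSC peak made up 1836 of the regions.

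The choice rests on 2 thresholds. All peaks had a -log10 q of at least 10, and 1043 regions (54.3%) had a value under 20 in at least 1 of the stem cell lists. The regions that came nearest to a fibroblast peak were chr13:112279529-112279855, at 34 bp, a region of Il17rd at chr14:27914995-27916220, at 35 bp, and chr1:90966871-90966970, at 53 bp. Just outside the set lay chrX:155693659-155693834, dropped for an overlap of 18 bp, chr5:3733763-3733942 (20 bp) and chr17:87682746-87682930 (23 bp). Most regions were far from such an edge. The median distance to the nearest MEF peak was 39921.5 bp, 114 regions (5.94%) had one within 500 bp and 587 (30.6%) within 10 kb.

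Regions were named where they overlapped an exon block that the genotype files pair with a gene. By this rule 777 regions (40.5%) lay in the listed exons of a gene. Another 251 (13.1%) lay inside the span of a gene's listed blocks but outside the blocks themselves, and 892 (46.5%) lay outside every such span. The regions that MEF shared were distributed otherwise, with 2705 (83.6%) in listed exons and 455 (14.1%) outside. Names rest on exons listed for stem cells, which leaves out genes not listed there, and 21 of 46 fibroblast and extracellular matrix genes could be named.

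Regions in listed exons were longer than the others. Regions in listed exons had a median length of 440 bp, those inside a gene span 185 bp and those outside 180 bp. Peaks of exactly 100 bp, the shortest length in the lists, made up 303 of the 1920 regions, and 344 (17.9%) were no longer than 110 bp. Of these 344, 7 lay in listed exons, 65 inside a gene span and 272 outside. E14 and EPSC placed the same start and the same end on 541 of the outside regions (60.7%), against 56 of the regions in listed exons (7.21%). The median fold was also higher outside, at 8.91 in E14 and 7.0 in EPSC, than in listed exons, at 6.15 and 5.46. Regions shared with MEF had lower medians in listed exons, 5.21 in E14 and 4.99 in EPSC, and higher ones outside, 11.4 and 7.35. Inside gene spans they stood at 8.35 and 6.35, against 7.39 and 6.41.

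**Figure D1:**
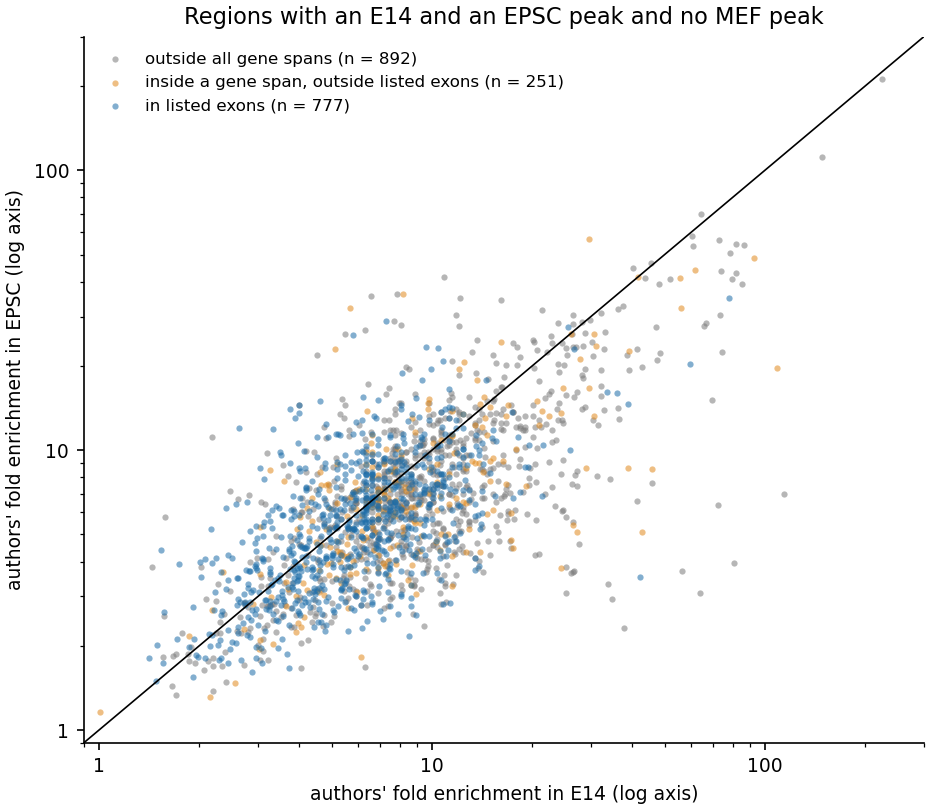
The authors' fold enrichment of each of the 1920 regions in E14 (horizontal, log axis) and EPSC (vertical, log axis), coloured by position, with the line of equal folds. Regions in listed exons centre on 6.15 in E14 and 5.46 in EPSC, and the highest folds belong to regions outside them, up to 224 and 213.

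Named regions lay toward the 3′ end of their gene. Of 733 regions in 1 gene with a listed span of at least 1 kb, the median position was 88.4% of the way from the 5′ to the 3′ end, and 68.2% lay in the last 25% of the span. Regions shared with MEF had a median position of 79.8%, with 56.6% in that last stretch. The span covers only the blocks that the files list, so it can be shorter than the gene.

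The E14 lists at 25K and 5K nuclei were not used to choose the regions. At 25K nuclei 962 of the 1920 regions (50.1%, Wilson 95% interval 47.9 to 52.3) had a peak, where 7.14% of all merged regions and 36.0% of those with an E14 peak at 100K did. At 5K nuclei 769 regions (40.1%, 37.9 to 42.3) had one, against 7.54% and 30.2%. A peak in both smaller lists was present for 653 regions, and 842 (43.9%) had none in either. The regions shared with MEF were found less often, in 39.5% at 25K and 33.3% at 5K. The order turned when the kinds were read separately. In listed exons the shares were close, with 31.7% of the regions found at 25K against 31.5% of those shared with MEF, while outside gene spans 65.9% were found against 82.6%.

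The short regions came back more often than the others. Of the 272 outside regions of up to 110 bp, 219 (80.5%) had a 25K peak, compared with 369 of the 620 longer ones (59.5%). Inside gene spans the shares were 89.2% of 65 short and 37.6% of 186 longer regions. All 7 short regions in listed exons had a peak at both amounts, among them the regions of Zfp608 and D130009I18Rik and both regions of Axin2. Short peaks with the same ends in several lists were described here as found. Whether they mark m6A was not tested.

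**Figure D2:**
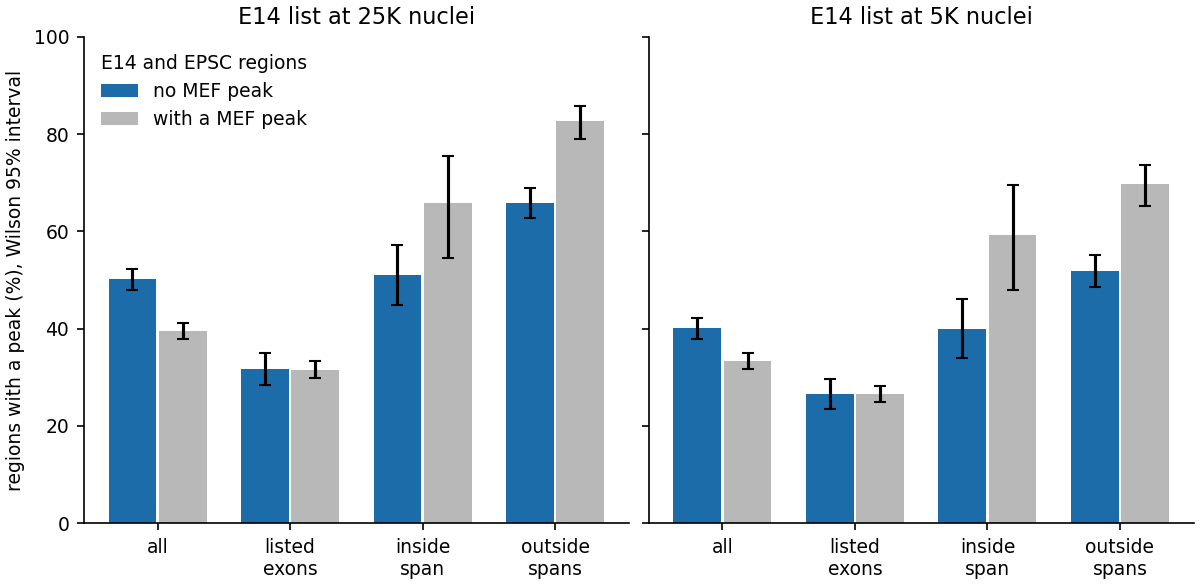
Share of regions with a peak in the E14 list at 25K nuclei (left) and at 5K nuclei (right), for E14 and EPSC regions without (blue) and with (grey) a MEF peak, in all and by position; bars show percent and lines the Wilson 95% interval. In listed exons both sets stand at about the same height (31.7% and 31.5% at 25K), and outside gene spans the regions without a MEF peak are lower (65.9% against 82.6%).

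Among regions without a name, the highest ranks went to short peaks on a few stretches. The first, at chr15:85565955-85566057, had folds of 224 in E14 and 213 in EPSC, and of 220 and 216 at 25K and 5K nuclei. The second, at chr13:45039983-45040082, stood at 148 and 112, and at 153 and 70.3 in the smaller lists. The one after it, at chr15:85815314-85815414, lay within the span of Celsr1, a planar cell polarity cadherin, with 92.9 and 48.4. The next were a 100-bp region on chromosome 18 (86.5 and 54.2), chr1:87942396-87942574 (82.0 and 54.4) and chr15:85996185-85996285 (81.9 and 42.9). All 6 had a peak in the 25K and in the 5K list, and the last lay 2226 bp from a MEF peak.

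The named regions fell in 556 genes of the 11193 that can be named, which is 4.97%. In 276 of these genes (49.6%) no listed exon had a fibroblast peak, and the other 280 had one elsewhere in the gene. Of all 11193 nameable genes 4447 had a fibroblast peak, so genes without one were less frequent among the 556 than among all nameable genes. The set thus holds genes with no fibroblast peak and genes whose fibroblast peaks lie at other places. Regions of the first kind of gene were found at 25K nuclei in 37.2% of cases and those of the second in 26.3%. Ktn1, which encodes the endoplasmic reticulum protein kinectin, had 11 regions, the most of any gene, and 12 regions with a MEF peak beside them. Its E14 folds ran from 2.63 to 8.94, its EPSC folds from 4.29 to 15.4, and 1 of the 11 had a peak in a smaller E14 list. Sorl1, an endosomal sorting receptor, had 10 regions over 68.4 kb of chromosome 9 and no fibroblast peak. Its longest region, chr9:41773366-41776485, had folds of 12.9 in E14 and 7.22 in EPSC, and the other 9 lay between 2.58 and 5.46 in E14.

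Further genes had several regions each. Tet1, which oxidises 5-methylcytosine, had 9, led by a region of 9084 bp at chr10:62267524-62276607 with folds of 9.92 and 19.5, and 1 region with a MEF peak. Cdh1, the epithelial cadherin that holds stem cell colonies together, had 6, with 1.74 to 4.40 in E14 and 3.45 to 6.32 in EPSC, and no MEF peak. Another 7 stretches of Cdh1 had an EPSC peak alone. R3hdm1 had 6 regions, and the pseudogenes 2610005L07Rik and 6820431F20Rik share 6 that cannot be assigned to one or the other. Lama1, a laminin alpha chain, Nucks1, a nuclear phosphoprotein, and Rian had 5 each with no fibroblast peak.

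Of 32 naive pluripotency genes with a position, 11 carried a region (34.4%, against 4.97% of all nameable genes), and 10 of the 11 had no fibroblast peak anywhere. They were Sox2, Esrrb, Zfp42, Tdgf1, Lin28a, Sall4, Fgf4, L1td1, Trim71 and Sall1, and in addition Rif1, which had 26 regions with a MEF peak. Of all 32 only 7 had a MEF peak, so its absence was common on the whole list. The lists were drawn up with earlier results of these data known, so the counts describe and do not test. L1td1, an RNA-binding protein of early embryos, led with folds of 11.5 in E14 and 14.1 in EPSC at chr4:98403123-98404980. Zfp42, also known as Rex1, reached 7.36 and 4.77, and Lin28a, a blocker of let-7 processing, 7.50 and 3.76. The core factors stood low. Sox2 had 1 region at chr3:34549775-34550301 with 1.57 in E14 and 2.64 in EPSC, and Esrrb reached 2.97 and 1.81. Nanog had an E14 peak of 3.00 but no EPSC peak, and Pou5f1 had no peak in the E14, EPSC or MEF list.

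Of 26 nameable signalling genes 5 carried a region (19.2%, against 4.97% of all nameable genes). They were the ligands Nodal and Fgf4, the activin receptor gene Acvr2b, the WNT feedback inhibitor Axin2 and the ETS factor Etv5. Of these Etv5 alone had a MEF peak elsewhere, and 17 of all 26 had one. Fgf4 had a single region of 2261 bp at chr7:152048665-152050925 with 3.24 in E14 and 4.46 in EPSC. Epithelial genes with a region were Cdh1, Lama1, Celsr1 and the desmosomal cadherin gene Dsg2, 4 of 26 (15.4%). Lama1 also sits on the trophectoderm and primitive endoderm list, where it was the sole member of 14 with a region. No region fell in the 11 nameable primed pluripotency and germ layer genes or in the 21 fibroblast and extracellular matrix genes, 15 of which had a MEF peak. In lists this short, none is near the 4.97% of all nameable genes, so the absence does not set these lists apart.

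Chromatin and RNA regulators made smaller groups. Among DNA methylation genes Tet1, Tet2 and the imprint protector Zfp57 carried regions, and all 3 had a fibroblast peak elsewhere. Among 34 Polycomb genes the 4 with a region were Phc2 and Cbx7 of the PRC1 complex and Mtf2 and Epop of PRC2. In the m6A pathway, the writer partners Wtap and Zc3h13 and the readers Igf2bp3 and Hnrnpa2b1 carried regions, 4 of 24, and 18 of the 24 had MEF peaks. Hnrnpa2b1 was the one without a MEF peak. Of 54 ribosomal protein genes 7 carried a region (13.0%), none of the 7 with a fibroblast peak. Of all 54 only 2 had a MEF peak, so its absence does not set the 7 apart. Rpl3 stood highest with 12.6 and 7.80, followed by a region that Rpl30 shares with Gm12191, with 10.1 and 7.04, which cannot be assigned to one or the other.

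Genes annotated as long noncoding made up 22 of the 556 (3.96%), against 2.92% of nameable genes. Of 22 listed long noncoding and imprinted RNAs 13 carried a region (59.1%), on a list drawn up with earlier results known, and 11 of the 13 had no fibroblast peak. Of all 22 only 6 had one, so its absence was common on the whole list. Rian, a maternally expressed RNA of the Dlk1-Dio3 imprinted domain that also hosts small RNAs, had its highest folds at chr12:110884004-110885045 (35.9 in E14, 15.95 in EPSC) and at chr12:110888030-110889342 (33.6 and 16.2). Both had peaks at 25K (27.8 and 5.22) and at 5K nuclei (4.23 and 6.73). Meg3, from the same domain, reached 3.44 and 2.46. Tsix, the antisense partner of Xist, had 7.84 and 10.3, and since the lists ignore strand its reads cannot be set apart from those of an overlapping gene. Of 12 nameable small nucleolar RNA host genes called Snhg, 7 held a region of the set and 1 held a region shared with MEF. Snhg5 had 10.8 in E14 and 20.8 in EPSC, Snhg11 11.8 and 11.95, and Snhg14 11.2 and 14.2.

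Zinc finger genes led the ranking of named regions. By the lower of the E14 and EPSC percentiles, 7 of the 12 highest genes were zinc finger genes: Zfp608, Zfp980, Zfp981, Zfp600, Zfp229, Zfp97 and Zfp991. The rest were D130009I18Rik, Rian, the splicing factor gene Hnrnph1, the proteasome subunit gene Psmd1 and Aasdhppt. Zfp608 had a region of 100 bp with 78.1 in E14 and 35.0 in EPSC, and with 79.1 and 182 at 25K and 5K nuclei. Zfp980 reached 59.4 and 20.3 over 2339 bp at chr4:145290846-145293184, and Zfp600 38.8 and 14.7 at chr4:146162603-146164879. Zfp981 stood at 25.7 and 27.5. Genes called Zfp made up 32 of the 556 (5.76%), 4.68% of genes with a region shared with MEF and 2.81% of nameable genes.

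Many of the regions lay side by side. Linked over gaps of up to 100 kb, 442 of them (23.0%) formed 53 groups of at least 5, and 30 of these groups, with 230 regions, held no fibroblast peak within their bounds. Of the regions shared with MEF, 42.5% lay in such groups. One stretch of 2.11 Mb on chromosome 4 (chr4:145026157-147132004), which holds a family of KRAB zinc finger genes known to repress transposable elements, carried 63 regions in 5 groups. They named 15 genes, among them Rex2, Zfp534, Zfp600, Zfp980, Zfp990 and Zfp991. Of the 109 merged regions there 1 had a MEF peak, 23 were in E14 alone and 22 in EPSC alone. The folds of the 63 regions ran from 4.37 to 59.4 in E14 and from 2.95 to 31.6 in EPSC, 1 was as short as 110 bp, and 23 had a 25K peak. The genes of this family are near-identical copies, so the gene that a read came from is uncertain. A second group of 9 regions on chromosome 7 held Zfp975, Zfp976 and Zfp977.

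The Meg3 and Rian group counted 15 regions over 205 kb (chr12:110782767-110987576), with a median length of 638 bp and no MEF peak. A group of 12 around Tet1 had a median of 273 bp, 2 regions with a 25K peak and 3 with a 5K peak. Other groups were made of short peaks. Around Axin2, 18 regions over 544 kb were all of up to 110 bp, all 18 had the same ends in E14 and EPSC, and 17 had a 25K peak. At Sp3 and Sp9, zinc finger transcription factor genes, 18 of 20 regions were that short. All 13 regions in the span of the kinase gene Camk1d had the same ends in both lists and lay outside listed exons. In all, 18 groups with 165 regions had a median length of up to 110 bp. Of these 165 regions 143 had a 25K peak, 124 a 5K peak, and 11 lay in listed exons. One group of 7 at chr11:46492075-46742953 went the other way, with the same ends in E14 and EPSC for all 7 and no peak at 25K or 5K nuclei.

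**Figure D3:**
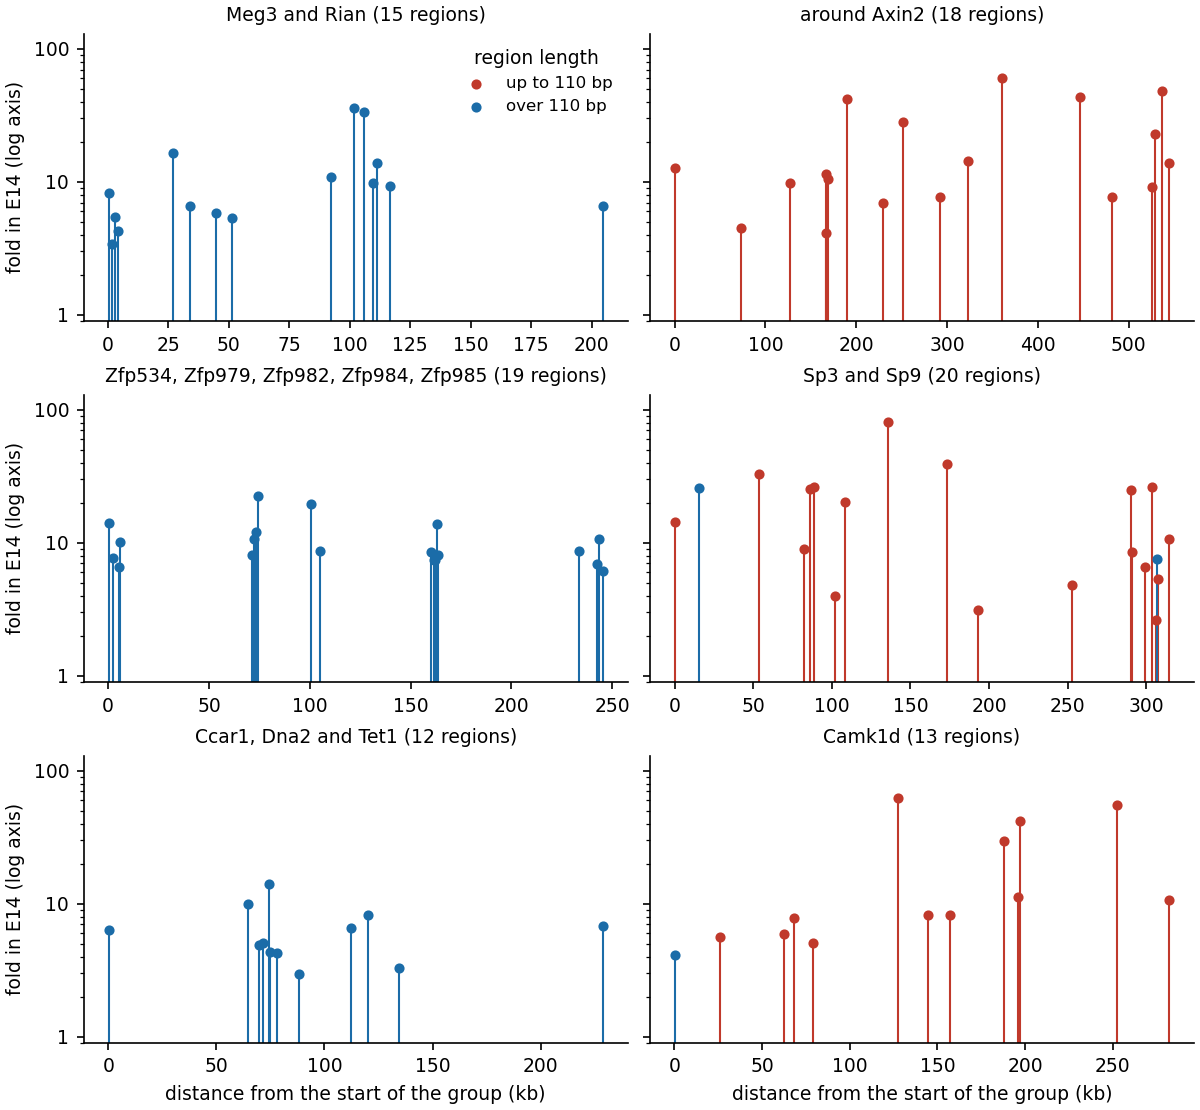
The authors' E14 fold (vertical, log axis) of each region along 6 groups, against the distance in kb from the start of the group; red marks regions of up to 110 bp and blue longer ones. The Meg3 and Rian group, the Tet1 group and the one of the 5 chromosome 4 zinc finger groups that is drawn (Zfp534 to Zfp985) hold longer regions only, while all 18 regions around Axin2 and 18 of 20 at Sp3 and Sp9 are short.

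The C57BL/6 stem cells give a second view, from other cells, another antibody and another peak caller. MeTPeak lists of the authors met 695 of the 1920 regions in wild-type (36.2%, Wilson 95% interval 34.1 to 38.4), against 57.9% of all merged regions, and 651 in the Mettl3 KO (33.9%, 31.8 to 36.1), against 54.6%. These lists hold exons only, and since names were taken from them, a region met by one is named by definition. Peaks of both genotypes met 625 regions, the wild-type list alone 70 and the KO list alone 26. Where both had a peak the median MeTPeak fold was 13.3 in wild-type and 7.0 in the KO. The fold was lower in the KO for 507 of 625 (81.1%), against 76.9% of all merged regions with both. Regions shared with MEF had a higher share, 87.5%, and regions in E14 alone (77.8%) or EPSC alone (74.4%) lower ones. Sox2 went from 36.8 to 6.5, Fgf4 from 37.2 to 8.0 and Rian from 42.7 to 3.5. Zfp980 did not follow them, at 29.8 in wild-type and 30.8 in the KO.

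The exomePeak2 table of the same cells gives m6A-CT and input in each genotype as RPM, reads scaled to the total of the column. Of the 1920 regions 497 (25.9%) met 435 regions of this table, in 372 genes. The targeted gene, Mettl3, had 1.5 RPM of m6A-CT over 1.71 of input in wild-type and 5.33 over 2.47 in the KO. The place of this stretch relative to the deletion is not given in the sources used here, so it does not check the labels. Across the 435 table regions the median RPM was 24.4 of m6A-CT and 3.97 of input in wild-type, and 11.8 and 3.10 in the KO. The median log2 ratio of m6A-CT over input was 2.62 in wild-type and 1.95 in the KO, on the log2(RPM + 0.1) scale, compared with 1.62 and 0.87 over all 33473 regions. A ratio over 2 was found for 406 of the 435 (93.3%) in wild-type, against 72.4% of the table, and for 370 (85.1%) in the KO, against 44.9%. The table regions met by regions shared with MEF had higher shares, 98.1% and 93.0%. The shares rest on the scaling: with reads scaled to those outside Lars2 and Rn45s, described below, 59.3% of the 435 in wild-type and 36.8% in the KO had a ratio over 2, against 30.04% and 10.6% of the table.

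By the authors' deposited table, 420 of the 435 (96.6%) were lower in the KO at an exomePeak2 FDR under 0.05, where 88.8% of the whole table were, and 15 (3.45%) were higher, where 11.0% were. The classes most like them had nearly the same share lower, 97.1% for regions shared with MEF and 96.7% for regions in E14 alone, so the share does not set these regions apart. Nearly every region of the table is past that FDR in one direction or the other, so these shares describe direction. The authors' deposited table gave a median log2 fold change of -1.10 for the 435, -1.35 for all its regions and -1.27 for those met by regions shared with MEF. From the RPM alone the median was -0.65 and 403 (92.6%) were lower, against 86.9%. Lars2 and Rn45s, a mitochondrial leucyl-tRNA synthetase gene and the ribosomal RNA precursor, held 36.5% of m6A-CT and 76.4% of input reads in wild-type, and 54.5% and 81.0% in the KO. Scaled to the remaining reads, the median log2 ratios of the 435 fell to 1.24 and 0.73, and 86.4% were lower in the KO. Over the whole table the same scaling gave 0.36 and -0.31, with 82.7% lower. A region of Rn45s, chr17:39981059-39981283, is itself 1 of the 1920, with folds of 1.49 in both stem cell lists.

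**Figure D4:**
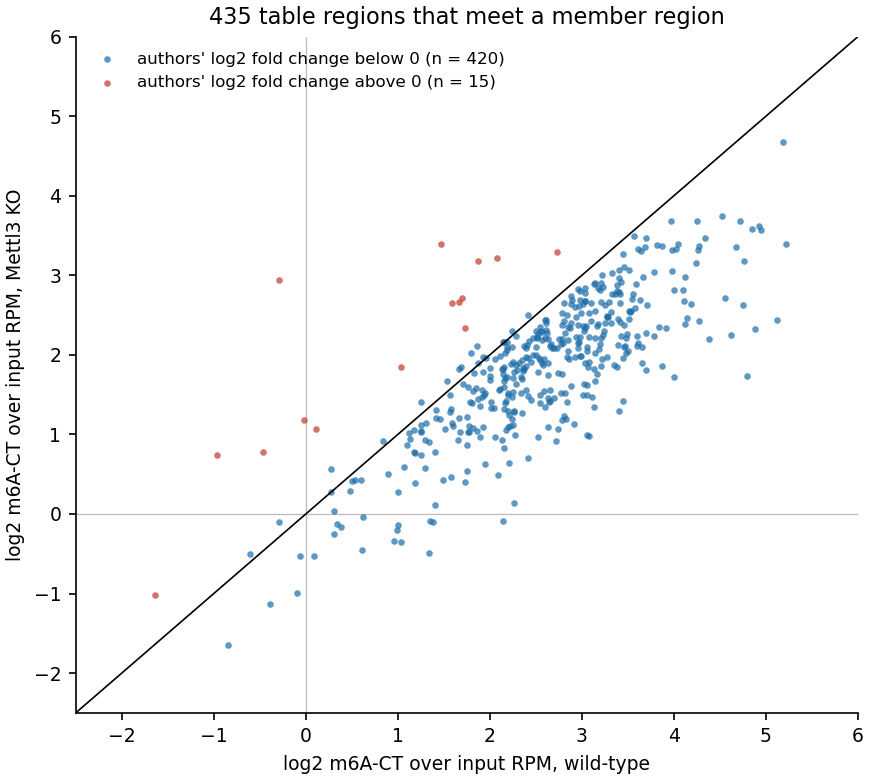
Log2 ratio of m6A-CT over input RPM in wild-type (horizontal) and Mettl3 KO (vertical) for the 435 table regions, with the line of equal ratios. The 420 with an authors' log2 fold change below 0 lie mostly under the line, at medians of 2.62 and 1.95 for all 435, and the 15 above 0 lie over it.

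The lowest and highest fold changes are given for table regions with at least 50 reads and an overlap of at least 50 bp, with each gene represented by its highest-ranked region. Tenm3, a teneurin of neuronal wiring, had the lowest, with 30.5 RPM in wild-type m6A-CT over 0.776 in input and 5.75 over 0.980 in the KO. Its log2 fold change was -3.27 in the authors' deposited table (exomePeak2 FDR 1.77e-20) and -2.69 from the RPM (counting error 0.34). Both inputs were low and near each other, while the m6A-CT values parted. Il17rd, an inhibitor of FGF signalling, had 61.6 over 3.75 RPM in wild-type and 16.8 over 5.02 in the KO. The authors' deposited table gave -2.82 (exomePeak2 FDR 1.26e-69), and the RPM gave -2.28 (counting error 0.16). Nodal had 39.9 over 4.72 RPM and 8.23 over 4.10. Its change was -2.58 in the authors' deposited table (exomePeak2 FDR 1.38e-51) and -2.06 from the RPM (counting error 0.17). Fancm (-2.85), Mfsd5 (-2.71), Celsr3 (-2.67), Adra2c (-2.61) and the WNT5A receptor gene Ror2 (-2.58) made up the rest of the lowest 8 in the authors' deposited table, Adra2c on 117 reads. A single region stands for each gene here, and other table regions lay lower than some of these. Among them were chr8:49325619-49325893 of Tenm3, at -4.41, and regions of Tenm4 and Lama1, both at -2.68.

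The pluripotency genes lay in between. Sox2 had 296 RPM over 106 in wild-type and 112 over 82.7 in the KO, a ratio of 2.80 against 1.35. All 13 table regions met by naive pluripotency genes were lower in the KO by the authors' deposited table at an exomePeak2 FDR under 0.05, with a median log2 fold change of -1.43. With 96.6% of the 435 and 88.8% of the table lower, these counts of lower regions, and those of the lists below, are near the background and describe direction only. Fgf4 fell from 309 over 43.5 RPM to 63.8 over 27.8, Trim71 from 344 over 56.97 to 106 over 36.2, and Esrrb from 249 over 105 to 159 over 94.6, each past that FDR. The 5 table regions met by signalling genes, 12 by DNA methylation genes and 12 by epithelial genes were all lower too in the authors' deposited table, with medians of -2.16, -0.86 and -1.28. Tet1 kept a high ratio, at 854 over 51.7 RPM in wild-type and 246 over 23.3 in the KO, or 16.5 against 10.5.

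Genes called Zfp had high ratios in both genotypes. The 23 table regions met by them had a median log2 ratio of 3.58 in wild-type and 2.82 in the KO, above the 2.62 and 1.95 of the 435. The 8 met by the listed zinc finger transcription factors, some of them also called Zfp, stood lower, at 1.89 and 1.63. Of the 23, 22 were lower by the authors' deposited table at an exomePeak2 FDR under 0.05, near the 96.6% of the 435. Zfp229 had 149 over 6.39 RPM in wild-type and 30.7 over 2.19 in the KO, so that its m6A-CT and its input were both lower. The 1 that was higher was Zfp608, with 1035 over 311 RPM in wild-type and 607 over 119 in the KO, a log2 fold change of 0.12 in the authors' deposited table (exomePeak2 FDR 4.96e-05). For the 6 table regions met on the chromosome 4 stretch the median input change was -1.03, and for the 435 it was -0.28.

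By the same rule, the 8 genes with the highest fold changes all had less input RPM in the KO than in wild-type. These genes were picked by a change of m6A-CT over input, so a lower KO input is favoured by the choice itself. Input was higher in the KO for 34.3% of the 435. Their median log2 input change was -0.28, against 0.0045 over the whole table. Whether input set the order of these genes was not tested. Xpo1, the nuclear export receptor gene, had 19.1 over 6.28 RPM in wild-type and 17.1 over 2.65 in the KO. Its log2 fold change was 1.00 in the authors' deposited table (exomePeak2 FDR 9.56e-08) and 1.06 from the RPM (counting error 0.17). Its m6A-CT values were close and its input values were not. Naa50, an N-terminal acetyltransferase gene, had 74.9 over 11.2 and 51.4 over 5.15 RPM and 0.34 in the authors' deposited table. Ergic2 (1.32), Nop58 (0.91), Ivns1abp (0.87), Hnrnpul2 (0.58) and Ap2a1 (0.46) followed in the authors' deposited table, each with a lower input in the KO. Rps12 had the highest value of the 8 there, 2.93, on 111 reads. From the RPM its change was 1.93, with a counting error of 0.96.

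**Figure D5:**
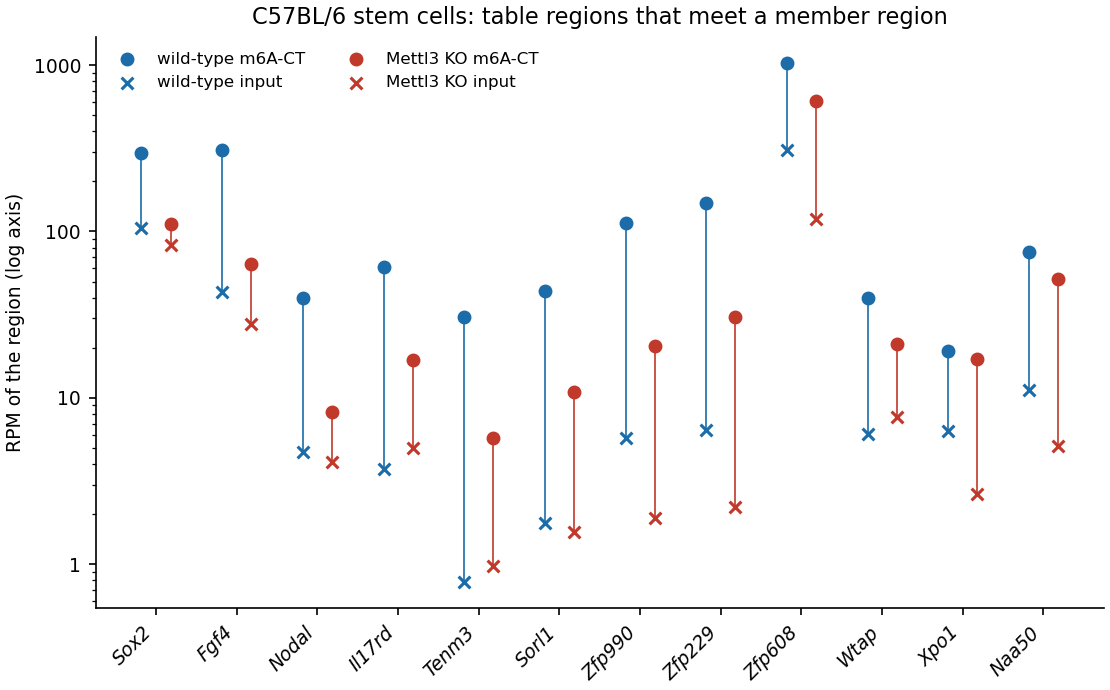
RPM (log axis) of m6A-CT (circles) and input (crosses) in wild-type (blue) and Mettl3 KO (red) for 12 genes whose table region meets one of the 1920 regions; each point is 1 pooled column. The gap between circle and cross narrows in the KO for Tenm3, from 30.5 over 0.776 to 5.75 over 0.980, and widens for Xpo1, from 19.1 over 6.28 to 17.1 over 2.65.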

How the data were processed

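Peak lists, MeTPeak lists and an exomePeak2 table were used. The submitters' processing notes name Trim Galore, STAR 2.7.2, MACS2 and the mm9 build. Whether replicates were pooled is not given in the sources used here. MeTPeak and exomePeak2 are named per the labels' descriptions, without version. The MACS2 lists give a score that the authors deposited as a whole number, a deposited fold enrichment (a ratio) and -log10 of p and q as deposited. Other deposited columns give positions. Each MeTPeak peak has a p-value in its deposited score column, and deposited log10 columns of p and FDR were not used. In the exomePeak2 table the deposited log2 fold change compares the KO with wild-type and has a deposited p-value. The deposited RPM values were whole multiples of 1 read, to within 0.01 reads, for 100% of m6A-CT and 99.994025% of input values, which gave back the read counts the authors had. With 1 column per group, no count test could be run.

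Overlaps, medians and Wilson 95% intervals were computed with Python 3.11.15, pandas 2.3.3 and scipy 1.17.1, and the overlap code was tested on simulated data. Ratios used a pseudocount of 0.1 RPM, and counting errors come from the reads of the 4 columns, which are not independent molecules. Counting errors belong to the log2 changes computed from the RPM and not to the deposited values. Gene spans over 2.5 Mb were not used. Of 11193 gene names 11178 matched a RefSeq table of GRCm38.p6, used for names alone. No mm9 sequence was used here. The members and gene lists were chosen with earlier results of these data known. The text names the 12 genes and 6 unnamed regions with the highest lower percentile, the 10 genes with the most regions, up to 4 genes per list, the 8 lowest and 8 highest log2 fold changes with at least 50 reads and 50 bp of overlap, the 3 regions on each side of the threshold, and Nanog, Sox2, Pou5f1, Cdh1, Rian and Zfp608. Other genes named, the groups (gaps of 100 kb), the 110 bp limit and the chromosome 4 stretch were chosen after the values were seen.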

Additional observations from a re-analysis of the deposited data

How the results depend on the processing

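In all, 51 alternative values were computed over 10 settings: 22 stayed within the 95% interval of the main value (for the count of regions, within 1.5 times), 29 moved, and none reversed; the cause was not tested. With all peaks past a -log10 q of 20 the set shrank to 1110 regions, of which 72.0% had a 25K peak, 55.7% a 5K peak, 30.3% a wild-type and 29.8% a KO MeTPeak peak, with median log2 ratios of 2.78 and 2.21. With only the MEF peaks held to 20 the set grew to 2434 regions, and the shares were 47.7%, 37.9%, 43.1% and 40.7%. With as many EPSC and MEF peaks as E14 has, it grew to 2875 regions, near the limit of 1.5 times. The 5K share was then 37.7%, the MeTPeak shares 53.3% and 51.2%, and the ratios 2.81 and 2.07. With E14 and EPSC peaks overlapping by 50% the shares were 54.0%, 43.3%, 32.1% and 30.2%, and with 50% of a region covered 42.3%, 32.2%, 30.4% and 26.6%. Without Lars2 and Rn45s the ratios were 1.24 and 0.73, and with a pseudocount of 1 RPM 2.27 and 1.57. Direction from the RPM ratios gave 92.6% lower. Leaving out a replicate was not run because the files give no value per library. No paired analysis was possible because each column or list stands for a whole group. Depth is unknown for the peak lists, so a missing peak may reflect depth, and regions near a -log10 q of 10 are the least certain.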
